A study of Mus musculus with 12 samples.

Results

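U6 and U6atac are small nuclear RNAs of the spliceosome, and their genes were followed here across RNA polymerase III (Pol III), RNA polymerase II (Pol II) and histone-mark signal in mouse liver. The 6 genes described are 1 U6atac gene and 5 U6 genes. They are the places among the 532 stretches of mouse genome (build mm9) covered by every deposited file that hold, at least 100 bp inside both ends, a gene with either name in the GENCODE vM1 annotation. The annotation names 936 genes U6 and 28 genes U6atac, and the others were not analysed here.

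Signal came from ChIP-seq, the sequencing of DNA pulled down with an antibody, on livers of C57/BL6 males that were 12 to 14 weeks old. All mice had a cycle of 12 h light and 12 h dark, with food offered only in the dark phase for the last 7 days. Livers were taken from 5 mice at Zeitgeber time 2 h (hours after lights on) and, as a biological replicate, from 5 mice at 26 h. The 12 libraries form 6 groups of 2. RPC1, the largest subunit of Pol III, and RPC4, a smaller Pol III subunit, give 4 Pol III libraries. RPB2 is the second-largest subunit of Pol II, and input is sonicated chromatin with no antibody step. For the histone libraries, title and antibody field are at odds: the 2 libraries titled H3K4 name an antibody against H3K36me3, and those titled H3K36 name one against H3K4me3. The names H3K4-titled and H3K36-titled follow the titles. The labels do not say which replicate was taken at which time, nor whether livers were pooled, so p-values measure only the spread between these libraries. Marker genes of liver were not among the covered stretches, and the tissue label was not checked. A lower signal in liver chromatin can mean fewer cells with polymerase or less polymerase per cell, and these cannot be told apart.

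U6 is the most conserved spliceosomal RNA and forms part of the catalytic centre of the major spliceosome, where it pairs with the start of the intron. U6atac takes the same place in the minor spliceosome, which removes a rare class of introns. Unlike the other spliceosomal RNAs, both are made by Pol III, from promoters that lie wholly upstream of the gene (type 3 promoters). These combine a distal element, often with an octamer bound by the transcription factor Oct-1, with a proximal sequence element (PSE) bound by the SNAPc complex and a TATA box that fixes the use of Pol III.

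None of the 6 genes overlapped another annotated gene. The U6atac gene lies on the minus strand at chr2:27395325-27395450 (ENSMUSG00000080538.1, 126 bp), 24648 bp from the start of Wdr5. One U6 gene lies at chr9:62981090-62981196 on the plus strand (ENSMUSG00000064559.1), 15572 bp from the start of Skor1. A pair of U6 genes lies on the plus strand of chromosome 10. The copy at chr10:79371940-79372046 (ENSMUSG00000075854.1) has its start region facing the start of Med16, a Mediator subunit gene on the other strand, 257 bp away. The copy at chr10:79448251-79448357 (ENSMUSG00000075986.1) is 1176 bp from the start of ORF61. The last pair lies tail to tail on chromosome 12, 590 bp apart. Its plus-strand copy is at chr12:53704775-53704881 (ENSMUSG00000064663.1) and its minus-strand copy at chr12:53705472-53705578 (ENSMUSG00000064489.1). The nearest coding start to the chromosome 12 pair, that of Arhgap5, is 87711 bp from the plus-strand copy. Each covered stretch adds flanks of about 150 bp to its gene.

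The U6atac gene sequence, read from the mm9 reference, is shown because it occurs once in the covered stretches, whereas the U6 copies cannot be told apart inside the gene.
U6atac: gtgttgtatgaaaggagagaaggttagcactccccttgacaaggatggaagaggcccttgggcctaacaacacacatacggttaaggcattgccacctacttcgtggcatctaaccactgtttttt
4 of the 5 U6 copies had the same 107 bases, and the chromosome 9 copy shared 106 of them. Of the 931 other genes named U6, 42 (4.51%) matched these copies in those 106 bases.

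The upstream sequences, in contrast, differ between the copies. The 250 bases before the gene are shown for the U6 copy with the highest Pol III coverage, for the U6 copy with the most different promoter words, and for U6atac. Capitals mark words that were chosen after the sequences had been read, namely the octamer ATTTGCAT, the PSE-like word CACCNTAA, TATA, and TTTAAATA.
U6, chromosome 12 plus-strand copy (chr12:53704525-53704774, plus strand): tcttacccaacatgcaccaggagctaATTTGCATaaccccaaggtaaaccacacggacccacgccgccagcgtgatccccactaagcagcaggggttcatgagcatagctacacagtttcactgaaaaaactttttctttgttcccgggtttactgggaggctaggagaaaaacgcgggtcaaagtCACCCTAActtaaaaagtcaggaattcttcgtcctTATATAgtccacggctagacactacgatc
U6 near ORF61 (chr10:79448001-79448250, plus strand): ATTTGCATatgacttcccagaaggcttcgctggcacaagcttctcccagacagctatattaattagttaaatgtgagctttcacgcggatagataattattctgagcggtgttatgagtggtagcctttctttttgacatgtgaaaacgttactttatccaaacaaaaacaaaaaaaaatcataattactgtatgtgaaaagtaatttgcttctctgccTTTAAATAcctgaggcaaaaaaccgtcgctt
U6atac (chr2:27395451-27395700, minus strand): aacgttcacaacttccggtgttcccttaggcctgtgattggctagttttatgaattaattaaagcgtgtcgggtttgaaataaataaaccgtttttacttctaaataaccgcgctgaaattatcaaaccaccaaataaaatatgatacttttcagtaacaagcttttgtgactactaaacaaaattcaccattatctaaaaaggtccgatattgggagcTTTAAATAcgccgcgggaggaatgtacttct

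Each word was searched on both strands in a window counted from the gene start. Words and windows were chosen after these sequences had been read, so high shares in these genes were partly fixed in advance. The shares elsewhere are given for scale and are no test. The octamer began between positions -250 and -150 in 5 of 5 U6 copies and not in U6atac. Near ORF61 it began at -250, the first base read, and sequence further upstream was not searched at any gene. Among the 931 other genes named U6 the octamer was found in 6 (0.644%), and among 32851 RefSeq promoters (build GRCm38.p6) in 206 (0.627%). CACCNTAA began between -75 and -45 in 4 of 5 U6 copies, against 2 of 931 (0.215%) other U6-named genes and 0.158% of RefSeq promoters. The copy near ORF61 and U6atac had no exact match, and near matches were not searched for. The U6atac sequence shown holds CACCATTA in that window, a single base off the word. TATA began between -35 and -15 in the same 4 U6 copies, against 95 of 931 (10.2%) other U6-named genes. In the copy near ORF61 and in U6atac, TTTAAATA began at -31 in both, a word in that window of 0.430% of other U6-named genes and 0.152% of RefSeq promoters. All of octamer, CACCNTAA and TATA were present in 4 of 5 U6 copies and in 0 of the 931 others. Such a match is a description of letters, not a measured site, and the octamer lies outside the covered stretches. By gapped alignment the upstream 250 bases of the chromosome 12 pair were 76% identical, while the other 14 pairs of genes shared 54.8% to 65.6%.

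**Figure D1:**
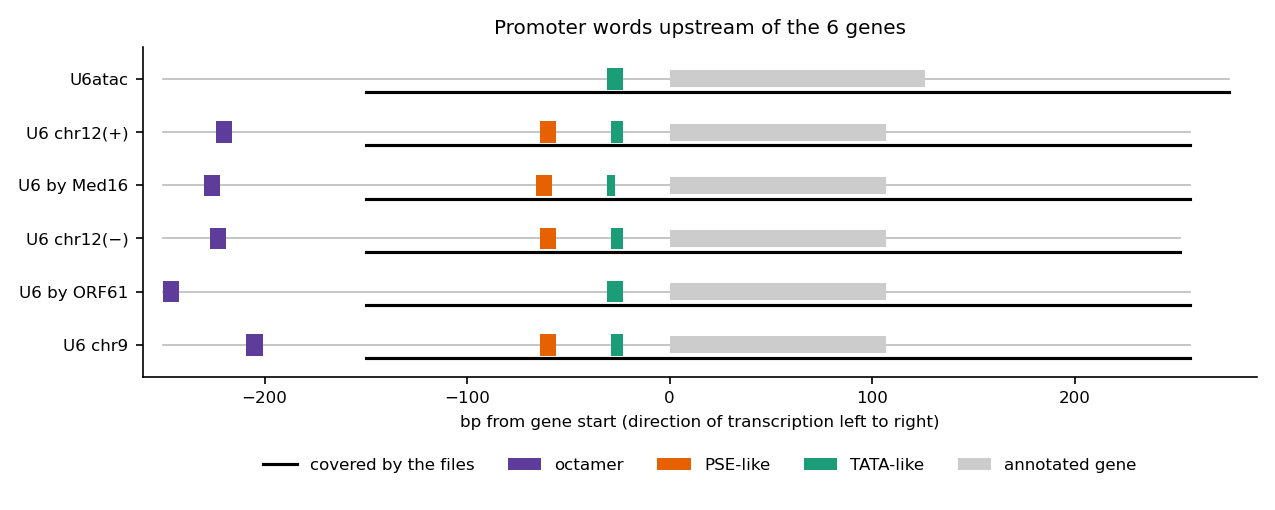
Map of the promoter words upstream of the 6 genes, with distance from the gene start in bp on the horizontal axis. Coloured boxes are matched words drawn to scale (TATA-like covers TATA and TTTAAATA), grey boxes the annotated genes and black lines the bases covered by the files. All 5 U6 copies have the octamer and all 6 genes a TATA-like word. Sequence more than 250 bp upstream was not searched. U6 near ORF61 and U6atac have no exact match to the PSE-like word.

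The identical gene bodies bear on every U6 value. Coverage here is the number of reads over each base, averaged over the stretch, and a single read adds 1 over 76 bp. All 32 windows of 76 bp that lie wholly inside a U6 gene occurred at several places of the genome, at a median of 64 and at most 71. In the files, between 94.4% and 100% of U6 gene bases had fractional coverage, which is what reads divided among places leave, against at most 1.36% of flank bases. At U6atac every window was unique and no base had fractional coverage. U6 gene-body coverage is therefore in part shared between copies, whereas flank coverage belongs almost wholly to 1 copy, and both are given where they differ.

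Pol III was highest on U6atac. Its coverage was 97.4 and 75.3 in RPC1 and 174.4 and 197.7 in RPC4 libraries, against 0.357 and 0 in input libraries. A value of 0 allows a coverage of up to 0.535 (3 reads, counting error only). The chromosome 12 plus-strand U6 copy came next, with 71.2 and 44.4 in RPC1 and 64.5 and 65.4 in RPC4, against 0.927 and 0.724 in input. Every Pol III library was far above both input libraries at these genes.

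The U6 copy beside Med16 had 33.5 and 29.6 in RPC1 and 46.3 and 51.9 in RPC4, against 1.18 and 0.638 in input. The chromosome 12 minus-strand copy had 34.0 and 25.7 in RPC1 and 38.4 and 45.0 in RPC4, against 0.349 and 0.467 in input. These 2 copies had much the same level. The copies near ORF61 and on chromosome 9 were lowest. Near ORF61, coverage was 7.73 and 7.30 in RPC1 and 10.4 and 11.7 in RPC4, against 0.378 and 0.405 in input. On chromosome 9 it was 6.02 and 4.33 in RPC1 and 10.2 and 9.57 in RPC4, against 0.625 and 0.653 in input. Even at these copies no Pol III library overlapped input.

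Among the 532 stretches ranked by mean Pol III coverage, U6atac was 48th, the chromosome 12 plus-strand copy was at place 147, the copy beside Med16 at 180, the minus-strand copy at 187, that near ORF61 at 289 and the chromosome 9 copy at 307. The median stretch had 15.2, so 2 U6 copies lay below it. 7SK and RNase MRP RNA, other genes with type 3 promoters, averaged 89.7 and 92.6. The first and second Y RNA genes, also of this type, averaged 58.8 and 34.8, at places 150 and 188. The place beside Parp2, where the annotation has a short RNA gene, had 10.8.

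**Figure D2:**
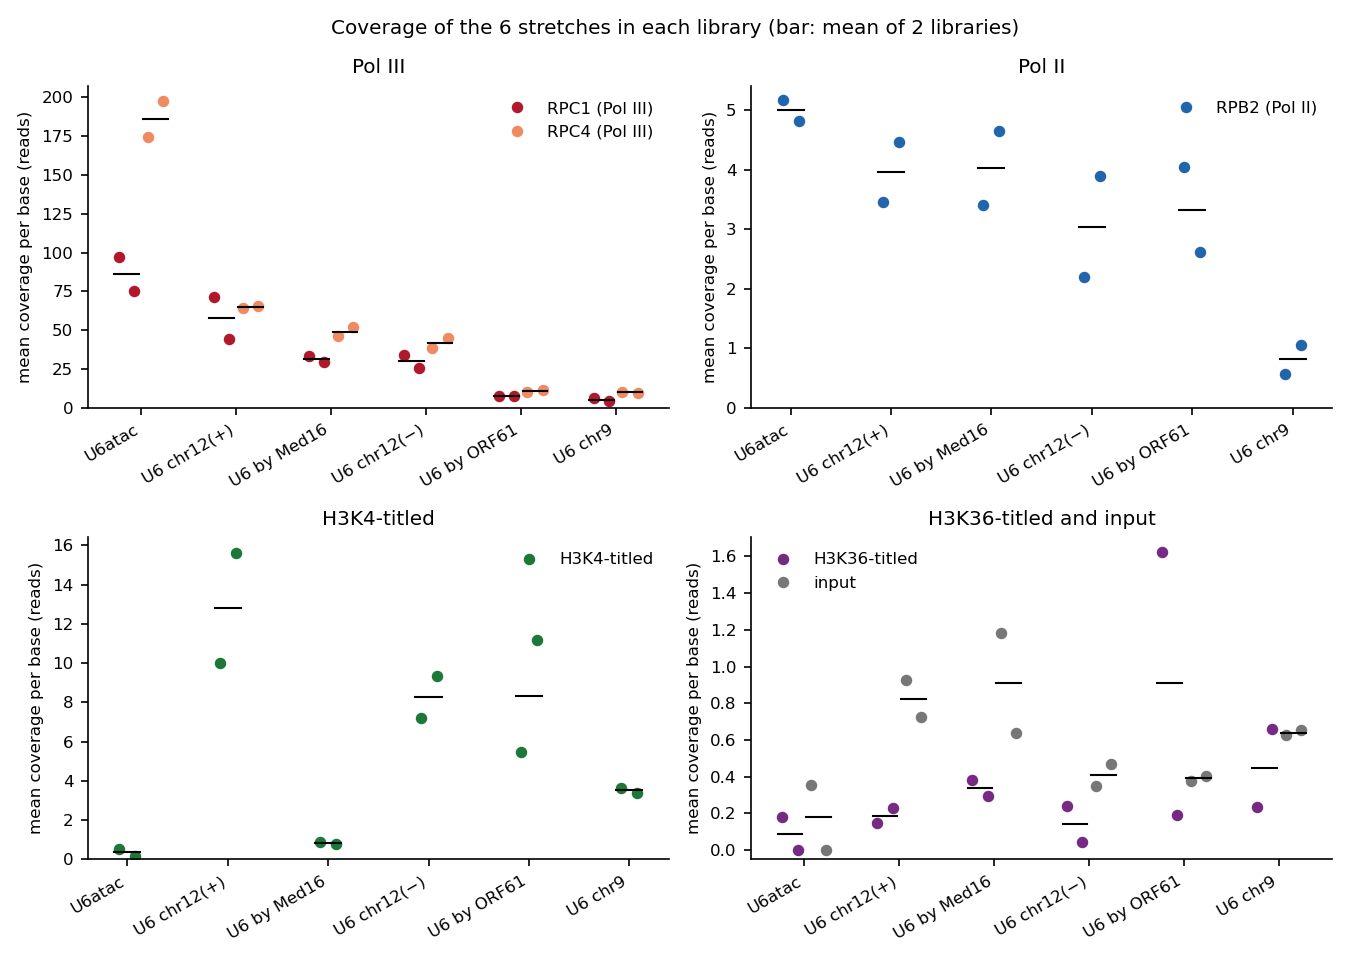
Mean coverage per base (reads, vertical axis) of each of the 6 stretches in every library, with 1 point per library and a bar at the mean of the 2 libraries of a group. U6atac leads in Pol III and has almost no H3K4-titled signal, while U6 near ORF61, low in Pol III, is close to the chromosome 12 pair in H3K4-titled and RPB2 libraries.

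Enrichment over input was tested with limma on log2(scaled coverage + pseudocount) across all 478 stretches that passed a filter on low coverage, with the libraries scaled to their background. That background is the mean over the 25% of stretches with the lowest Pol III, and the pseudocount was 0.347 of it, which shrinks fold changes. All 6 genes passed the filter and all 6 were above input in Pol III, as were 74.3% of all stretches tested, so the count says little about these genes in particular. Their median log2 fold was 5.52, against 3.84 over all stretches tested. U6atac had a log2 fold of 8.28 ± 0.60 (SE; adjusted p = 9.8e-09, limma with Benjamini-Hochberg adjustment), the chromosome 12 plus-strand copy 5.92 ± 0.35 and the minus-strand copy 5.82 ± 0.41. The copy beside Med16 had 5.23 ± 0.40, that near ORF61 3.93 ± 0.52 and the chromosome 9 copy 3.14 ± 0.48, with adjusted p of at most 2.5e-05 by the same test. Since that background was picked on Pol III itself, it was also picked without Pol III, which lowered the folds to 7.63 at U6atac, 5.24 and 5.15 at the plus-strand and minus-strand copies, 4.55 beside Med16, 3.27 near ORF61 and 2.49 on chromosome 9, with all 6 still above input. Leaving out the first or second input library gave 8.87 or 7.64 at U6atac.

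How many of these calls stand depends on the scaling. With file totals, where a fold is a change in a stretch's share of the library, 20.7% of all stretches were above and 49.2% below input. U6atac (log2 fold 5.45) and the chromosome 12 plus-strand and minus-strand copies (1.06 and 1.27) were then above input, the minus-strand copy just under the threshold (adjusted p = 0.050 by limma). The chromosome 9 copy was below it (-1.57, adjusted p = 0.030 by limma), and the copies beside Med16 (0.36) and near ORF61 (-0.55) did not pass.

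**Figure D3:**
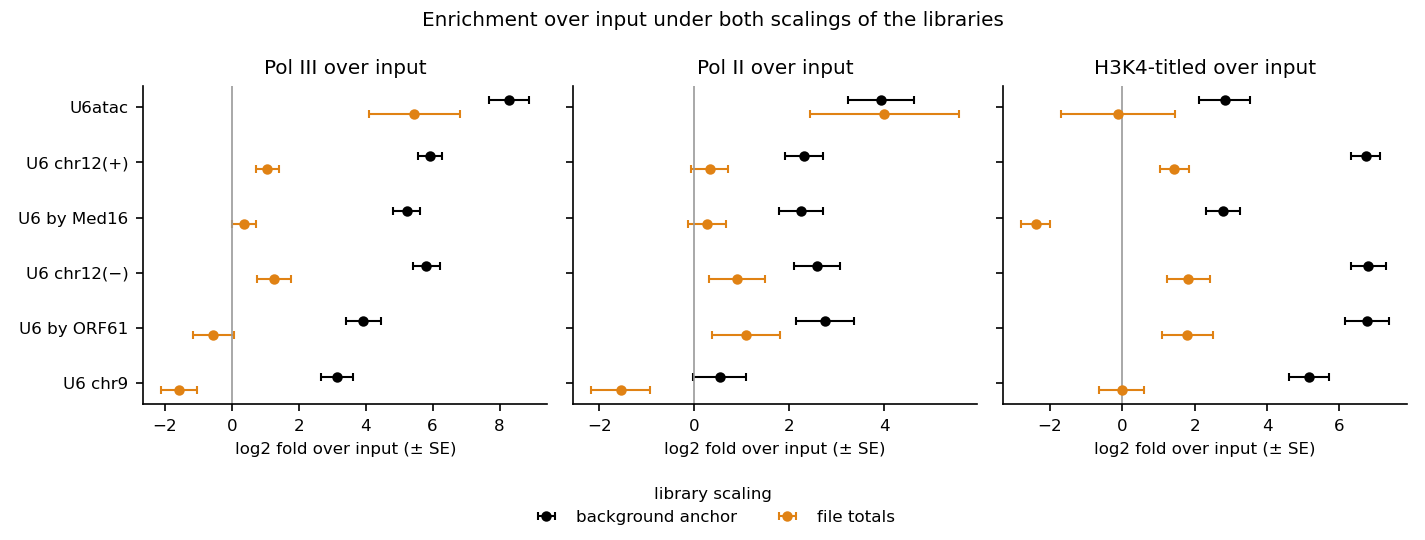
Log2 fold over input (horizontal axis, with SE) of the 6 genes in Pol III, RPB2 and H3K4-titled libraries. Black points use libraries scaled to their background and orange points libraries scaled to file totals. U6atac and the chromosome 12 pair lie right of 0 in Pol III with both scalings, and U6 on chromosome 9 turns from 3.14 to -1.57.

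Ratios between genes within a library depend on the scaling only through the pseudocount added to both values, which shrinks ratios at low coverage. The log2 ratio of each pair of genes was averaged over the 4 Pol III libraries, and an exact two-sided sign-flip permutation test was run for all 15 pairs. These are 2 libraries of each subunit, which may share mice and so may not be independent. The SD therefore also holds differences between RPC1 and RPC4. With 4 libraries this exact permutation test cannot go below p = 0.125 (0.134 adjusted over the pairs), so no pair could pass 0.05. Still, 14 of 15 pairs had the same order in every library. U6atac was above the chromosome 12 plus-strand copy 2.08-fold (log2 1.06 ± 0.54, SD, n = 4), above the copy beside Med16 3.20-fold (1.68 ± 0.29) and above the minus-strand copy 3.58-fold (1.84 ± 0.36). It was above the copy near ORF61 13.5-fold (3.76 ± 0.35) and above the chromosome 9 copy 17.2-fold (4.10 ± 0.15). These leads were smaller on flank bases alone. There the log2 ratio was 0.26 ± 0.51 over the chromosome 12 plus-strand copy (SD, n = 4), less than its spread. Flank coverage in RPC1 was 53.1 and 38.6 at U6atac, against 66.0 and 37.8 at that copy. In RPC4 it was 80.2 and 105.0, against 57.0 and 58.6, so the flank lead over that copy rested on RPC4. The log2 flank ratio of U6atac was 0.82 ± 0.23 over the copy beside Med16 and 1.01 ± 0.30 over the minus-strand copy. Over the copies near ORF61 and on chromosome 9 it was 3.19 ± 0.31 and 3.53 ± 0.28.

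U6 copies of identical gene sequence also differed among themselves. The chromosome 12 plus-strand copy was 6.49-fold above the copy near ORF61 (log2 2.70 ± 0.32, SD, n = 4), and the copy beside Med16 was 4.23-fold above it (2.08 ± 0.07). Within the chromosome 12 pair, the plus-strand copy was 1.72-fold above the minus-strand copy (0.78 ± 0.22), in 4 of 4 libraries. The copy beside Med16 and the minus-strand copy were the pair that changed order, with the first higher in 3 of 4 libraries (0.16 ± 0.13). The copy near ORF61 was above the chromosome 9 copy in 4 of 4 libraries, but by only 1.27-fold (0.34 ± 0.29), a difference close to its spread. Flank bases, where few reads are divided, gave mean Pol III coverage of 54.9 ± 12.0 for the chromosome 12 plus-strand copy, 37.7 ± 11.1 beside Med16 and 32.6 ± 8.09 for the minus-strand copy (SD, n = 4). They gave 6.99 ± 1.61 near ORF61 and 5.79 ± 2.52 on chromosome 9. The order of these flank means was thus that of the whole stretches. Single libraries could differ: in the first RPC4 library flank coverage was 7.38 near ORF61, against 8.47 on chromosome 9.

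Pol III lay differently along the genes. On U6atac it formed a single summit inside the gene, 54 to 57 bp from its start in all 4 libraries, and 63.9% of the coverage lay within the gene. On the chromosome 12 plus-strand copy the summit lay 5 to 9 bp before the gene start, with mean coverage of 62.4 in the upstream flank, 79.6 in the gene and 47.3 in the downstream flank. On the minus-strand copy the RPC1 summits lay at -7.5 and -9.5 bp, whereas 1 RPC4 summit lay at -1 and the other at 124 bp, past the gene end. The copy beside Med16 had its RPC4 summits past the gene end, at 156 and 145 bp. Its RPC1 summits lay inside the gene, at 106 and 94.6 bp. Its coverage was 25.7 upstream, 47.5 in the gene and 49.8 downstream. Near ORF61 the RPC1 summits lay in the gene, at 101 and 50.5 bp, and the RPC4 summits before it, at -5.5 and -13 bp. On chromosome 9 they lay at 30 and 49 bp in RPC1 and at -2 and -5.5 bp in RPC4. At both copies 44.4% of the coverage lay within the gene. Dips inside U6 genes fall where reads are divided among copies. The part of that division in the profiles and in the summit positions of the U6 copies was not tested. These summits are thus not directly comparable with that of U6atac, where no reads were divided.

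No difference in level between the 2 Pol III subunits was called at these genes. Comparing RPC1 with RPC4, limma called 0 of 6 genes and 0% of the 478 stretches (1 higher and 2 lower at unadjusted p under 0.05). The log2 differences ran from -0.68 ± 0.70 at U6atac to 0.22 ± 0.40 at the chromosome 12 plus-strand copy (SE), wide enough to leave sizeable differences unseen. Their coverage in the flanks was not divided alike. The log2 ratio of upstream over downstream flank coverage at U6atac was 0.98 and 1.24 in RPC1, against 0.27 and 0.29 in RPC4. At the chromosome 12 plus-strand copy it was 1.46 and 0.79 in RPC1, against -0.15 and -0.39 in RPC4. At the minus-strand copy it was 1.44 and 1.57 in RPC1, against 0.20 and -0.24 in RPC4.

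RPC1 coverage thus leaned further upstream than RPC4 coverage on these 3 genes, with no overlap between the libraries of the 2 subunits. Beside Med16, where both leaned downstream, the ratio was -0.58 and -0.59 in RPC1, against -1.24 and -1.16 in RPC4. On chromosome 9 it was 0.27 and 2.10 in RPC1, against -0.71 and -0.16 in RPC4, from stretches holding only 23.2 to 54.4 read equivalents. The copy near ORF61 went the other way, at -1.15 and -0.72 in RPC1, against -0.10 and 0.23 in RPC4. In all, RPC1 leaned further upstream in 5 of 6 genes and further downstream in 1. The share of all covered stretches with such a lean was not counted. Whether the lean is particular to these genes or general to RPC1 and RPC4 libraries was therefore not tested. No test was run on these ratios; an exact permutation test of 2 libraries against 2 cannot reach p under 0.05.

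**Figure D4:**
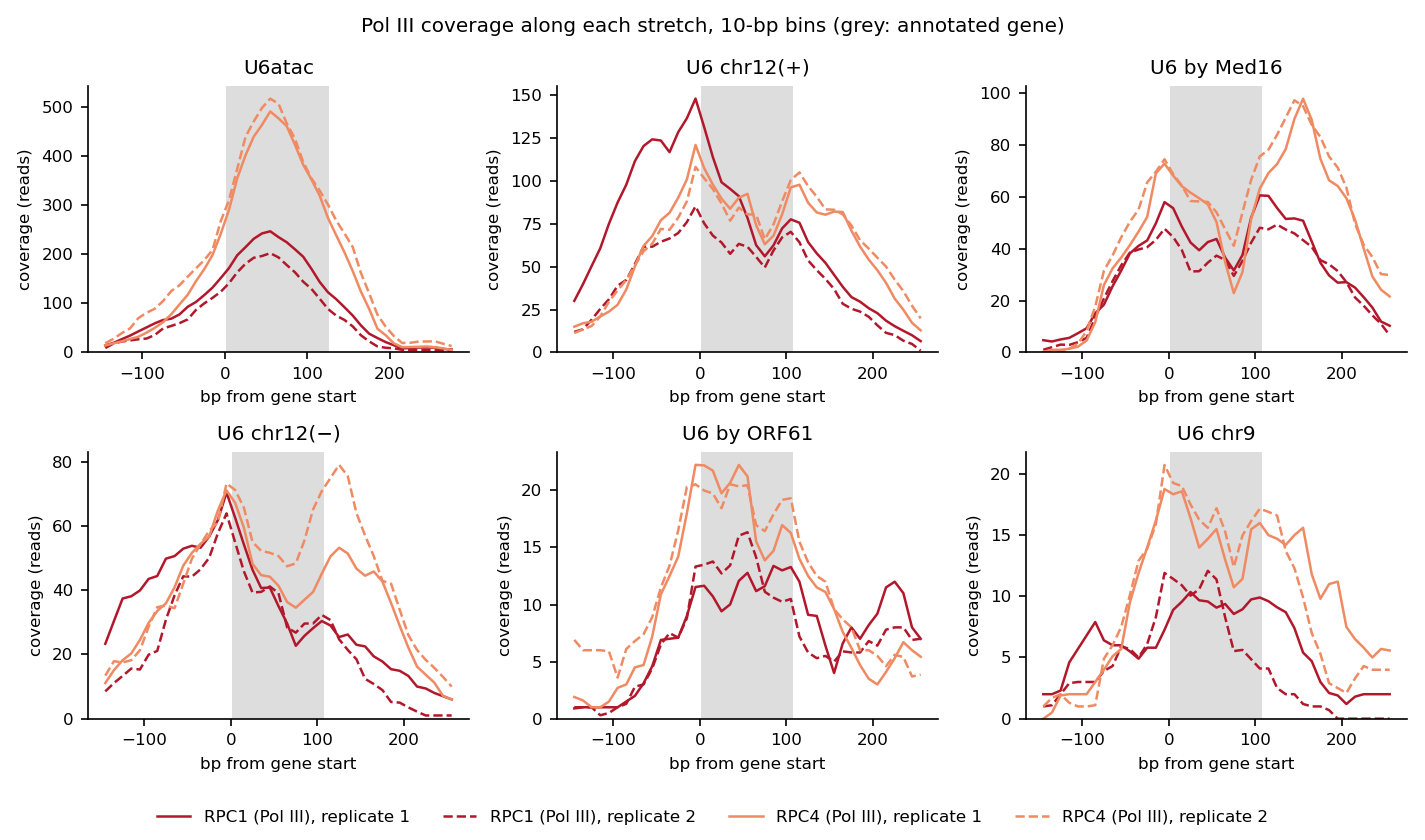
Pol III coverage (reads, vertical axis) in bins of 10 bp against distance from the gene start (bp) for the 6 genes, with 1 line per library and the annotated gene in grey. U6atac has 1 summit inside the gene in every library. Beside Med16, near ORF61 and on chromosome 9 the RPC1 summits lie inside the gene and the RPC4 summits outside it. Upstream of the chromosome 12 plus-strand copy the first RPC1 library (96.8 on average) exceeds both RPC4 libraries (54.0 and 50.8). The second RPC1 library (48.0) does not.

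RPB2 coverage was below Pol III coverage at all 6 genes, as was its median over the 532 stretches (1.90, against 15.2 in Pol III). RPB2 coverage at U6atac was 5.17 and 4.82, against 0.357 and 0 in input. The copy near ORF61 had 4.04 and 2.62 in RPB2, against 0.378 and 0.405 in input. The copy beside Med16 had 3.41 and 4.65 in RPB2, against 1.18 and 0.638 in input. All of these RPB2 values lay above input.

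The chromosome 12 plus-strand copy had 3.45 and 4.46 in RPB2, against 0.927 and 0.724 in input, and the minus-strand copy had 2.19 and 3.89, against 0.349 and 0.467. The chromosome 9 copy had 0.569 and 1.06 in RPB2, against 0.625 and 0.653 in input, and was the 1 gene whose libraries overlapped. Mean Pol III coverage was 27.3 times mean RPB2 coverage at U6atac, 15.5 times at the chromosome 12 plus-strand copy and 2.78 times near ORF61, as deposited and without scaling for depth.

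RPB2 was above input at 5 of 6 genes, against a background of 42.9% of all stretches tested (0.209% were below). Their median log2 fold was 2.45, against 1.04 over all stretches. U6atac had 3.94 ± 0.70 (SE; adjusted p = 0.00038, limma with Benjamini-Hochberg adjustment), and the other called genes ran from 2.25 to 2.75. Without the first or second input library U6atac had 4.53 or 3.30, and in 150 bp around the Pol III summit the copy near ORF61 was no longer called (adjusted p = 0.15 by limma), which left 4 of 6. The chromosome 9 copy had 0.53 ± 0.55 (adjusted p = 0.50 by limma). With file totals 0 of 6 genes were above input, against 6.69% of all stretches above and 22.2% below, and U6atac had 4.00 ± 1.57 (adjusted p = 0.080 by limma), while the chromosome 9 copy was at -1.55. Between genes, 11 of 15 pairs had the same order in both RPB2 libraries, each in the direction of the mean Pol III ratio, including all 5 pairs with the chromosome 9 copy as the lower one. U6atac exceeded the other 4 U6 copies by 0.31 ± 0.37 to 0.72 ± 0.61 on the log2 scale (SD, n = 2), with spreads of similar size, and on flank bases alone it was not above those beside Med16, near ORF61 and on the plus strand of chromosome 12.

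H3K4-titled signal was arranged quite otherwise. U6atac, highest in Pol III, had coverage of 0.535 and 0.164 in H3K4-titled libraries, against 0.357 and 0 in input, which are 3.00 and 0.921 read equivalents against 2 and 0. The copy beside Med16 had 0.868 and 0.790, against 1.18 and 0.638 in input. These 2 genes were at about the input level before scaling. The other 4 copies were well above it. The chromosome 12 plus-strand copy had 9.99 and 15.6 in H3K4-titled libraries, against 0.927 and 0.724 in input, and the minus-strand copy 7.21 and 9.32, against 0.349 and 0.467. Near ORF61 the values were 5.45 and 11.2, against 0.378 and 0.405 in input, and on chromosome 9 they were 3.63 and 3.38, against 0.625 and 0.653.

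H3K4me3 is known as a mark of active promoters of Pol II and is also found around many Pol III genes, so the pairs are set side by side. Whether the H3K4-titled libraries hold H3K4me3 or, as their antibody field says, H3K36me3 cannot be told from the labels. The chromosome 12 plus-strand copy exceeded the copy beside Med16 14.5-fold in H3K4-titled libraries (log2 3.86 ± 0.52, SD, n = 2), against 1.53-fold in Pol III (0.62 ± 0.33, n = 4). The copy near ORF61 exceeded that beside Med16 9.08-fold in H3K4-titled libraries (3.18 ± 0.80, n = 2), while in Pol III it was the lower of the 2. Both orders held in every library. No test was run on the H3K4-titled ratios, which come from 2 libraries.

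Scaled to their background, H3K4-titled libraries were above input at 6 of 6 genes, against 67.6% of all stretches tested (3.97% were below). The members' median log2 fold was 5.95, against 3.66 over all stretches. Log2 folds were 6.80 ± 0.48 and 6.73 ± 0.40 at the chromosome 12 minus-strand and plus-strand copies, 6.75 ± 0.60 near ORF61, 5.17 ± 0.55 on chromosome 9, 2.83 ± 0.70 at U6atac and 2.79 ± 0.46 beside Med16 (SE). The largest adjusted p was 0.0021, at U6atac (limma with Benjamini-Hochberg adjustment). The U6atac fold moved with single libraries, to 1.61 without the first and 4.06 without the second H3K4-titled library, and to 3.42 and 2.20 without the first and second input library. These folds lean on the very low background of the H3K4-titled libraries, 0.0637 and 0.131 against 0.791 and 0.959 in input. With file totals only the chromosome 12 plus-strand and minus-strand copies were above input (1.44 and 1.83, against 13.4% of all stretches above and 53.1% below). With that scaling the copy beside Med16 was below input (-2.39), and near ORF61 the log2 fold was 1.80 (adjusted p = 0.050 by limma, just over the threshold). U6atac (-0.10) and the chromosome 9 copy (-0.01) lay near 0.

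At the 4 U6 copies well above input before scaling, mean H3K4-titled coverage was highest in a flank, not in the gene. At the chromosome 12 plus-strand copy mean coverage was 11.8 upstream, 2.25 in the gene and 21.3 downstream. At the minus-strand copy it was 18.2 upstream, 2.03 in the gene and 2.58 downstream. On chromosome 9 it was 0.213 upstream, 0.763 in the gene and 8.76 downstream, and near ORF61 it was 2.84, 2.83 and 17.7. The side thus differed, with the most signal upstream at the minus-strand copy and downstream at the other 3. The gene was not lower than both flanks everywhere: it exceeded the upstream flank on chromosome 9 and equalled it near ORF61. Beside Med16, with few reads, mean coverage was 0.407 upstream, 1.32 in the gene and 0.900 downstream. The ratio of gene over flank coverage at the chromosome 12 plus-strand copy was 0.126 and 0.142 in H3K4-titled libraries, against 0.364 and 0.653 in input, and 1.30 to 1.66 in the Pol III libraries. At 4 of 5 U6 copies, all but the one beside Med16, both H3K4-titled ratios were below both input ratios. Reads inside the gene are divided among places in every library, and the part of that division in these ratios was not tested.

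**Figure D5:**
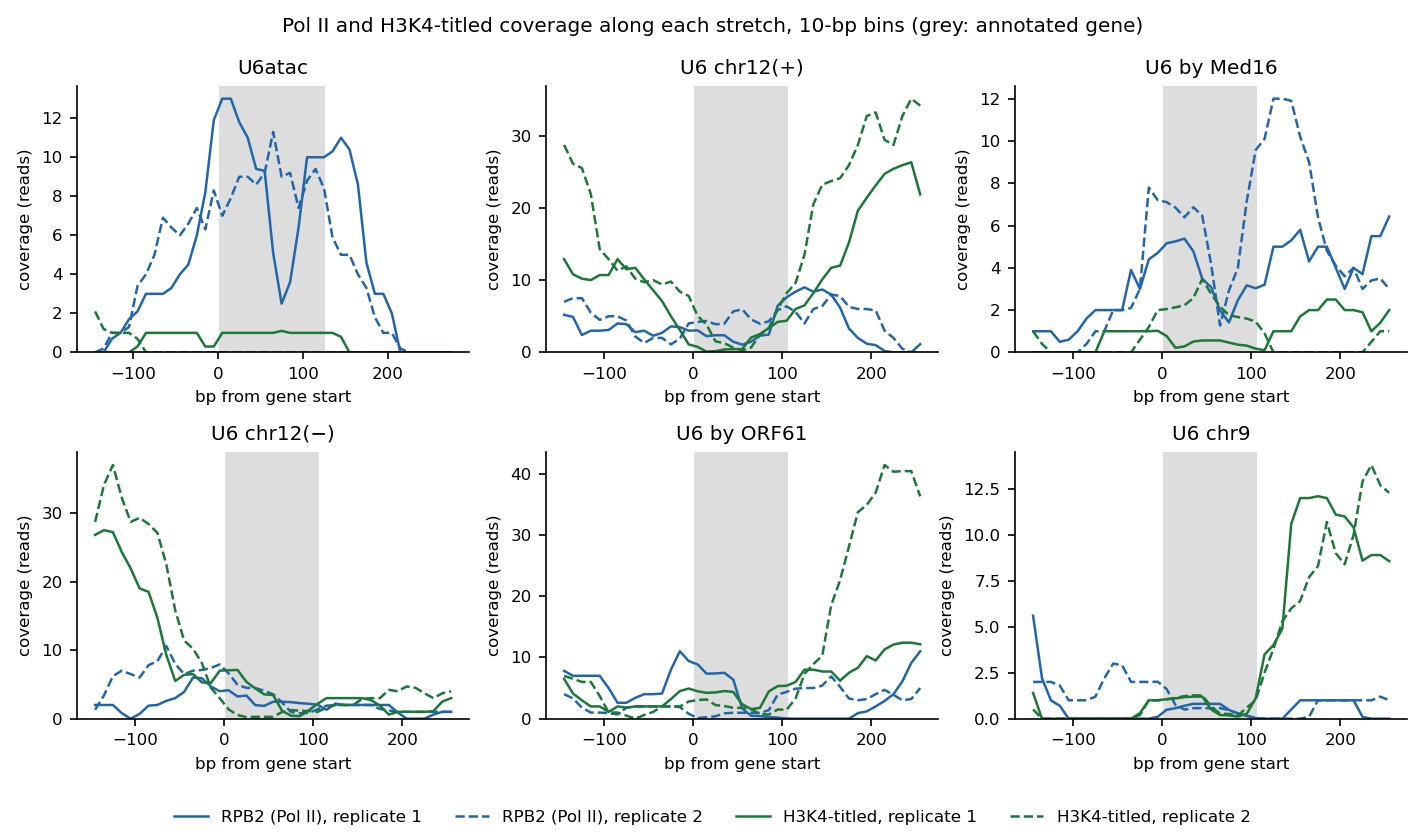
RPB2 (blue) and H3K4-titled (green) coverage in reads, in bins of 10 bp against distance from the gene start (bp), with 1 line per library and the annotated gene in grey; vertical axes differ between genes. H3K4-titled signal is highest upstream of the chromosome 12 minus-strand copy (18.2 on average) and downstream of the plus-strand copy (21.3), and near absent at U6atac.

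H3K36-titled libraries showed little at these genes. Limma called 0 of 6 above or below input, against 3.14% of all stretches above and 7.74% below. With coverage as deposited 2 of 6 were below input, the copy beside Med16 (log2 -1.03, adjusted p = 0.038 by limma) and the chromosome 12 plus-strand copy (-1.47, adjusted p = 0.0057), as were 322 of the 478 stretches. With file totals 0 of 6 were called, against 3.56% of all stretches above and 19.5% below. At unadjusted p under 0.05, 29 stretches were above and 92 below. U6 near ORF61 was highest, with 1.62 and 0.193 in H3K36-titled libraries, against 0.378 and 0.405 in input. The replicates disagreed there, and the log2 fold of 1.67 ± 0.60 (SE) did not pass (adjusted p = 0.089 by limma). It passed when the second H3K36-titled library was left out (2.88, adjusted p = 0.0011 by limma). These libraries held only 1754 and 1273 read equivalents over all stretches, against 82276 to 160705 in the Pol III libraries, so small differences were not detectable at this depth.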

How the data were processed

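Liver ChIP-seq was measured in 12 libraries, 2 for each of 6 groups taken from the titles. The authors deposited coverage, a signal per base on build mm9 (per the submitters' processing notes), and file totals differ, so no depth scaling is visible. The aligner and the rule for dividing reads are not given in the labels or file headers. Depth over the 532 stretches was 82276 to 160705 read equivalents of 76 bp in Pol III, 13848 and 14779 in RPB2, 17033 and 26665 in H3K4-titled, 1273 and 1754 in H3K36-titled and 3365 and 3563 in input libraries. It limits precision to counting error, and full library depth is unknown. A stretch listed in some files only was left out.

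Members, promoter words and scaling were chosen with earlier results of these data known. Libraries were scaled to a trimmed mean (0.1 trimmed) of the 133 stretches, 25% in all, that had least Pol III, with no member among them. A filter removed stretches below the 0.1 quantile of mean scaled coverage, and log2 values were fitted with limma 3.58.1 in R 4.3.3 (mean-variance trend, 1 coefficient per group, Benjamini-Hochberg adjustment at 0.05) in a form tested on simulated data. Libraries with the same replicate number did not deviate together (correlations of -0.12 to 0.12), so no block was used. All members are named. The genes set beside them, and the 3 stretches most like U6atac and the U6 copy highest in Pol III, follow a set rule. Alternatives were other scalings, pseudocounts, filters, windows and anchors, merged regions, fewer groups, array weights, a replicate block and leaving out each library. SE and SD values reflect the spread between libraries, and the floor given for a coverage of 0 covers counting error only. The sequence of the U6 gene is not reported here.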

Additional observations from a re-analysis of the deposited data

Results flagged for a closer look

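At the chromosome 12 plus-strand U6 copy and at the chromosome 9 U6 copy, both RPC1 libraries had more coverage in the upstream than in the downstream flank and both RPC4 libraries had less. The log2 ratio of upstream over downstream flank differed between RPC1 and RPC4 by 1.39 at the chromosome 12 plus-strand copy and by 1.62 at the chromosome 9 copy. The difference was not tested. At the chromosome 9 copy it rests on few reads, 23.2 and 32.2 read equivalents in RPC1 and 54.4 and 51.2 in RPC4.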

How the results depend on the processing

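The choice of scaling changed the most, and the cause was not tested. With file totals, members above input fell to 3 in Pol III, 0 in RPB2 and 2 in H3K4-titled libraries, and all stretches above input to 99, 32 and 64. Log2 folds were then -1.57 for the chromosome 9 copy and -0.55 for the copy near ORF61 in Pol III, -1.55 for the chromosome 9 copy in RPB2, and -0.10 for U6atac, -0.0072 for the chromosome 9 copy and -2.39 for the copy beside Med16 in H3K4-titled libraries. With the median of ratios, 147 stretches were above input in Pol III, 42 in RPB2 (0 members), 122 in H3K4-titled (3 members) and 34 in H3K36-titled libraries (1 member, the copy near ORF61). The chromosome 9 copy was then at -0.40 in Pol III and -0.71 in RPB2, and the copy beside Med16 at -0.87 in H3K4-titled libraries. With coverage as deposited, 184 stretches were above input in H3K4-titled libraries, the copy beside Med16 was at -0.066 there, and the chromosome 12 plus-strand copy was at -0.21 in RPC1 over RPC4.

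With the compared groups only, 9 stretches were above input in H3K36-titled libraries, and 5 stretches, none of them a member, were called between RPC1 and RPC4. Leaving out 1 library at a time gave 0 to 1 members and 11 to 23 stretches above input in H3K36-titled libraries, the highest of both without the second H3K36-titled library, and -0.030 to 0.48 for the chromosome 12 plus-strand copy in RPC1 over RPC4, lowest without the first RPC1 library. On flank bases, the log2 RPB2 ratio of U6atac over the copies beside Med16, on the plus strand of chromosome 12 and near ORF61 was -0.16, -0.23 and -0.075. In 150 bp around the Pol III summit, the chromosome 12 plus-strand over minus-strand ratio was -0.59 in RPB2 and -0.30 in H3K4-titled libraries (-0.052 for highest coverage), and the chromosome 9 copy over that beside Med16 was at -0.44 in H3K4-titled libraries. H3K4-titled enrichment at U6atac also lost its call with coverage as deposited, the median of ratios, the summit window and the compared groups only. Of the other counts, 186 of those recomputed stayed within 1.5 times. The replicate block changed no member count (6, 5, 6, 0 and 0 called), and all stretches above input were 356 in Pol III, 204 in RPB2, 323 in H3K4-titled and 16 in H3K36-titled libraries. Same-numbered libraries did not deviate together. Input depth, at most 6.32 read equivalents per member and library, limits every fold.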

Other observations

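The same subunit ratio was looked at in 4 other genes with type 3 promoters. The mean log2 ratio of upstream over downstream flank was 4.81 in RPC1 and 2.69 in RPC4 at 7SK, 3.73 in RPC1 and 2.77 in RPC4 at RNase MRP RNA, and -0.70 in RPC1 and -1.37 in RPC4 at the first Y RNA gene. At the second Y RNA gene it was 2.58 and 2.49 in RPC1, against 2.41 and 0.63 in RPC4, so the difference there rests on the second RPC4 library. The mean ratio was higher in RPC1 than in RPC4 in 4 of 4 of them, and in 5 of 6 U6 and U6atac genes. Since the share over all covered stretches was not counted, these counts have no background. Whether the difference is general to RPC1 and RPC4 libraries was not tested.

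By Euclidean distance over the 6 group means on the log2 scale, the 3 stretches most like U6atac were chr3:90279632-90280003, 120 bp from the start of Ilf2 (distance 1.91), the 7SK stretch (2.11) and chr11:68875672-68876045 (2.18). Like U6atac they combined high Pol III coverage (158.1, 89.7 and 106.1) with little H3K4-titled coverage (1.08, 0.207 and 0.470). Those most like the chromosome 12 plus-strand U6 copy were chr13:22142405-22142786 near Hist1h2bj (0.736), chr13:21261406-21262306 near Trim27 (0.892) and chr1:167571615-167571986 near Mpzl1 (0.938). They had Pol III coverage of 70.9, 68.2 and 76.3 and H3K4-titled coverage of 11.2, 12.1 and 11.3. Likeness was measured over groups of 2 libraries and is a description.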
